A study of Homo sapiens with 4 samples.

Results

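The HOXA and MEIS1 programme is a set of 10 genes whose high expression is a hallmark of leukaemias with a rearranged KMT2A gene: HOXA5, HOXA7, HOXA9, HOXA10, MEIS1, PBX3, MEF2C, FLT3, CDK6 and MLLT3. The members were taken by symbol, and all 10 are among the 26830 symbols of the expression table. They were measured in 2 Flag-IP libraries (numbered 1 and 3) and 2 input libraries (1 and 3) from NOMO-1, a human acute myeloid leukaemia line. NOMO-1 is known to carry a KMT2A::MLLT3 fusion. All 4 libraries come from cells overexpressing 3xFlag-tagged ALKBH5, an enzyme that removes the N6-methyladenosine (m6A) mark from RNA; after UV crosslinking the Flag-IP was taken with an anti-Flag antibody and the input with none. Cells with the construct had been selected with puromycin and sorted for GFP, no untagged pull-down is analysed here, and a tagged overexpressed protein need not bind as the endogenous one does. The labels do not say whether the numbers stand for separate cultures, so errors and p-values cover the differences among these libraries alone, and those could be technical. In bulk RNA, fewer cells with a transcript and less of it per cell cannot be told apart.

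HOX proteins are homeodomain transcription factors that act with partners of the TALE class, the MEIS and PBX proteins, to hold blood progenitors in an immature, dividing state. KMT2A, a histone methyltransferase, keeps HOXA genes active, and its fusions recruit elongation factors and DOT1L, a methyltransferase of histone H3, to the same genes. In mouse models HOXA9 and MEIS1 together cause leukaemia. FLT3 is a cytokine receptor kinase, CDK6 a kinase of the G1 phase, MEF2C a transcription factor of lymphoid and myeloid progenitors, and MLLT3 a reader of acylated histones and the usual fusion partner of KMT2A in monocytic leukaemia.

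Sequences at the HOXA9 locus are shown first, because a readthrough transcript, HOXA10-HOXA9, has a row of its own and shares its exons with both genes. In GENCODE 29 the readthrough (ENST00000470747) holds 765 exonic bases, all on the minus strand of chromosome 7. Of these 397 (51.9%) lie in annotated exons of HOXA9 and 368 (48.1%) in annotated exons of HOXA10, so that 100% of its bases are shared. What sets it apart is the joint between the pieces. The 30 bases around that joint are given in 5′ to 3′ order on the minus strand of GRCh38, with the 15 bases common to both transcripts in capitals.
HOXA9: gtggttctcctccagTTGATAGAGAAAAAC
HOXA10-HOXA9: cggaaatgtgtcaagTTGATAGAGAAAAAC
In HOXA9 (ENST00000343483) the window is continuous within exon 1, chr7:27164953-27164982. In the readthrough the lower-case bases end the upstream exon at position 27179646, and the capitals begin the next. A read within the shared bases that does not cross this joint could come from the readthrough or from one of the genes. The shared bases make up 13.1% of the 3029 annotated exonic bases of HOXA9 and 9.9% of the 3707 of HOXA10.

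The m6A mark is laid down at a short consensus whose best known form, in DNA letters, is GGACT. The letters GGACT were counted on the transcript strand of the longest coding transcript of each member in GENCODE 29. The count was 10 in MEF2C, 6 each in FLT3 and CDK6, 4 in MLLT3, 2 each in MEIS1, HOXA10, HOXA7 and HOXA5, 1 in HOXA9 and 0 in PBX3. MEIS1 thus held 0.391 per kb, HOXA10 0.787 and CDK6 0.517, against a median of 0.948 over 5974 tested protein-coding genes, of which 91.7% had at least 1. Windows of 25 bases around the first match in the coding sequence are given for the members that carry most of the results, with the motif in capitals.
MEIS1: acaagacacgGGACTcaccatcctt
CDK6: tccgaggtctGGACTttcttcattc
HOXA9: actactacgtGGACTcgttcctgct
Both matches in HOXA10 fell outside its coding sequence. A match is no measured m6A site, and methylation was not measured.

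Expression was given in TPM, which corrects for gene length and sums to a fixed total, so levels can be compared between genes but the read depth of a library is unknown. Structural RNAs, ribosomal RNA among them, took 92.5% and 93.6% of TPM in Flag-IP and 96.8% and 96.3% in input. This left the mRNAs more room in Flag-IP. A median-ratio scale was therefore set beside the deposited one: each library was divided by the median ratio of its tested genes to their mean over libraries, so a difference on it is relative to the typical gene. Differences are log2 values of Flag-IP minus input, with 1 added to each value, which understates the changes of low genes. Over all 6487 tested genes the median difference was 0.84 as deposited and -0.01 after median-ratio scaling. The check of the myeloid label was mixed: CEBPA, SPI1, CD33 and ELANE, genes of the myeloid lineage, stood between 2.15 and 22.78 TPM in every library. The other listed markers were lower: CD14 was listed at 0 and CSF1R was at 0.03 TPM or less. MPO, FCGR1A and ITGAM stayed at or below 0.56 TPM. LYZ was at 1.63 and 0.95 TPM in Flag-IP and at 0.40 and 0.80 TPM in input. The 10 myeloid markers summed to 47.13 and 45.82 TPM in Flag-IP and to 25.33 and 34.09 TPM in input, and 3 of the 4 tested were lower relative to the typical gene, as were 18.6% of all tested genes; their part in the results was not tested. Of 21 markers of T and NK, B, erythroid and megakaryocytic or epithelial cells, 15 were listed at 0 in all libraries, and NKG7, at 12.02 to 23.87 TPM, was the 1 marker of these above 0.26 TPM.

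Values of the programme were low on a TPM scale mostly taken by structural RNAs, but HOXA10 ranked above most detected genes. Of 15248 genes above 0 in Flag-IP, 2571 had a higher Flag-IP mean than HOXA10. Of 13697 above 0 in input, 2647 had a higher input mean than HOXA10 and 12885 a higher one than FLT3. In input, 2 members (HOXA10 and MEIS1) averaged at least 1 TPM and 2 more, CDK6 and HOXA9, more than 0.5 TPM. The order in input was HOXA10, MEIS1, CDK6, HOXA9, PBX3, MLLT3, HOXA5, HOXA7, MEF2C and FLT3. Neighbours in that order whose values overlapped were CDK6 and HOXA9, HOXA9 and PBX3, PBX3 and MLLT3, HOXA5 and HOXA7, and HOXA7 and MEF2C. In Flag-IP the order was MEIS1, HOXA10, CDK6, HOXA9, PBX3, HOXA5, MLLT3, MEF2C, HOXA7 and FLT3, where MEIS1 and HOXA10, CDK6 and HOXA9, HOXA9 and PBX3, HOXA5 and MLLT3, and HOXA7 and FLT3 overlapped. Summed over the 10 members, the level was 15.68 and 13.29 TPM in Flag-IP 1 and 3 and 4.11 and 6.03 TPM in input 1 and 3.

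**Figure D1:**
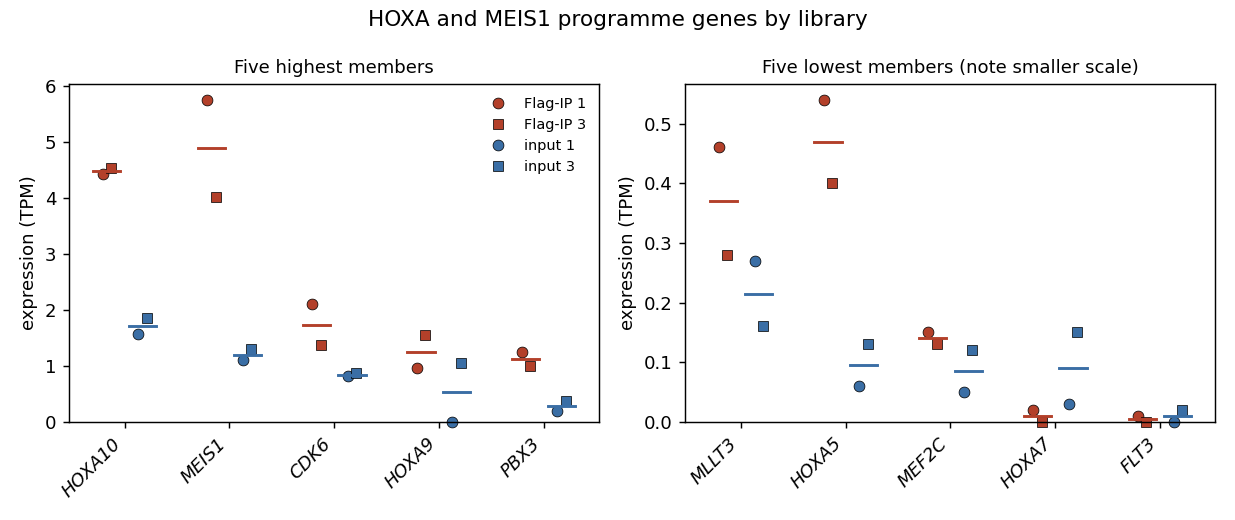
Expression (TPM) of the 10 programme genes, the 5 highest on the left and the 5 lowest on the right on a smaller scale; each point is 1 library, circles are number 1 and squares number 3, and bars are means of 2 libraries. MEIS1 and HOXA10 stand above 4 TPM in Flag-IP and below 2 TPM in input, while FLT3 and HOXA7 lie at 0.15 TPM or less in all libraries.

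Each member was compared between Flag-IP and input to ask whether its mRNA is recovered with tagged ALKBH5. As deposited, the Flag-IP values exceeded each input value for 7 of the 10 (HOXA5, HOXA10, MEIS1, PBX3, MEF2C, CDK6 and MLLT3) and fell short of each for HOXA7, and the groups overlapped for HOXA9 and FLT3. Of all 15678 genes above 0 in any library, 73.4% lay above and 1.23% below, so 7 of 10 is near the share of the table; among tested genes the shares were 93.1% and 1.09%. On the median-ratio scale 3 members lay above (MEIS1, PBX3 and HOXA5) and 2 below (HOXA7 and CDK6), against 32.3% above and 24.0% below among all genes, and 37.0% above and 37.1% below among tested genes. Only HOXA10, MEIS1 and CDK6 had a mean of at least 1 TPM and were tested with limma; CDK6 reached that mean through its Flag-IP values, its input mean being 0.845 TPM. All 3 were higher on the deposited scale, where 86.6% of tested genes were called higher and 0.740% lower. MEIS1 alone of the 3 was higher on the median-ratio scale, where 22.3% of tested genes were called higher and 18.6% lower.

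MEIS1 (chr2:66433452-66573869, plus strand, GRCh38), the TALE partner that stabilises HOXA9 on DNA, had the highest Flag-IP level of the programme. It was at 5.76 and 4.02 TPM in Flag-IP 1 and 3 and at 1.11 and 1.30 TPM in input 1 and 3. Every Flag-IP value was thus more than 3 times either input value. The means were 4.89 ± 1.23 and 1.21 ± 0.134 TPM (SD, n = 2 each), a ratio of 4.06, where the median tested gene had 2.38. The difference in deposited values was 1.40 ± 0.21 (SE; limma adjusted p = 1.84e-10). MEIS1 was also higher than the typical gene, by 0.52 ± 0.11 (limma adjusted p = 0.0125), and 15.7% of tested genes had a larger difference. Without Flag-IP 1 this difference was 0.42 and no longer passed (limma adjusted p = 0.0754). With the trend of the difference on transcript length removed it was 0.35 (limma adjusted p = 0.0543). The longest MEIS1 transcript, which is coding, has 5111 bases. Over the 5974 tested protein-coding genes the median of the longest coding transcript was 3207.5 bases.

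HOXA10 (chr7:27170591-27180261, minus strand), the member with the highest input level, was at 4.43 and 4.54 TPM in Flag-IP and at 1.58 and 1.85 TPM in input. The values within a group lay close together and the groups stood well apart on this scale. Means were 4.49 ± 0.0778 and 1.72 ± 0.191 TPM (SD, n = 2 each), a ratio of 2.62. On the deposited scale HOXA10 was higher by 1.02 ± 0.21 (limma adjusted p = 4.07e-06). Against the typical gene its difference was 0.10 ± 0.12 and did not pass (limma adjusted p = 0.556); scaled values of 2.56 and 3.24 in Flag-IP overlapped those of 2.63 and 2.65 in input. It was -0.025 without Flag-IP 3. Scaled to the total without structural RNAs, with no median-ratio step, the difference was 0.36 (limma adjusted p = 0.0911). HOXA10 shares exons with the readthrough, so its level is uncertain by an unknown part.

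CDK6 (chr7:92604921-92836594, minus strand), the cyclin-dependent kinase that drives entry into S phase with D-type cyclins, was at 2.10 and 1.37 TPM in Flag-IP and at 0.82 and 0.87 TPM in input. The groups did not overlap, but the Flag-IP values differed from each other by more than Flag-IP 3 differed from input. The ratio of means was 2.05, below the 2.38 of the median tested gene. The deposited difference of 0.56 ± 0.19 passed (limma adjusted p = 0.00451); it did not without input 1 or input 3 (limma adjusted p = 0.0898 and 0.0628), and it was -0.26 with quantile scaling and -0.013 with structural RNAs left out. Set against the typical gene, CDK6 was at -0.14 ± 0.11 and did not pass (limma adjusted p = 0.338). CDK6 has a very long 3′ UTR, and its longest transcript has 11612 bases; with the length trend removed it was lower by 0.59 on the median-ratio scale and passed (-0.59 ± 0.10, limma adjusted p = 0.00709).

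HOXA9 (chr7:27162435-27175180, minus strand), the central oncogenic HOX factor of KMT2A-rearranged leukaemia, cannot be read from its own row alone. It was at 0.96 and 1.55 TPM in Flag-IP 1 and 3 and at 0 and 1.06 TPM in input 1 and 3, and the groups overlapped. The readthrough HOXA10-HOXA9 ran the other way within each group, at 2.03 and 0 TPM in Flag-IP 1 and 3 and at 1.11 and 0.18 TPM in input 1 and 3. Where one row was at 0 the other was not, in input 1 and in Flag-IP 3. The readthrough took 67.9% and 0% of the sum of both rows in Flag-IP 1 and 3, and 100% and 14.5% in input 1 and 3. Which share is the readthrough's own cannot be told apart in values per gene, as the shared bases printed above show. Summed, a choice made after the values were seen, the rows gave 2.99 and 1.55 TPM in Flag-IP and 1.11 and 1.24 TPM in input. The sum did not overlap between groups, and as deposited 93.1% of tested genes had both Flag-IP values above both inputs. Its means were 2.27 ± 1.02 and 1.18 ± 0.0919 TPM (SD, n = 2 each), a ratio of 1.93, below the 2.38 of the median tested gene. The sum was higher by 0.55 ± 0.20 on the deposited scale (limma adjusted p = 0.00758), where 86.6% of tested genes were called higher. It was at -0.23 ± 0.14 against the typical gene and did not pass (limma adjusted p = 0.246).

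**Figure D2:**
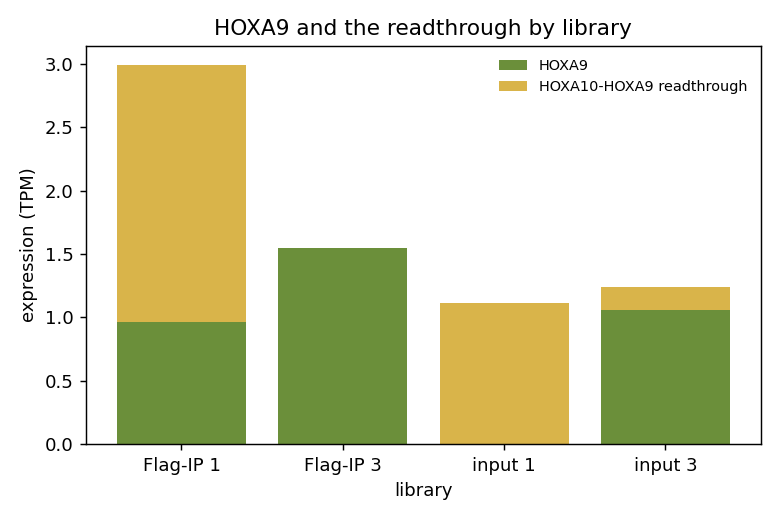
Expression (TPM) of the HOXA9 row and, stacked on it, of the HOXA10-HOXA9 readthrough row, 1 bar per library. The sums are 2.99 and 1.55 TPM in Flag-IP and 1.11 and 1.24 TPM in input, while the split between the rows changes from library to library.

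The other homeodomain members were lower still. PBX3 (chr9:125747345-125967377, plus strand), the TALE cofactor that binds DNA beside HOXA9 and MEIS1, was at 1.25 and 1.00 TPM in Flag-IP and at 0.19 and 0.37 TPM in input, a ratio of means of 4.02 close to that of MEIS1. HOXA5 (chr7:27141052-27143668, minus strand), a paralogue from the middle of the cluster, was at 0.54 and 0.40 TPM in Flag-IP and at 0.06 and 0.13 TPM in input, a ratio of 4.95. For both genes the groups did not overlap on either scale. Both were under the mean of 1 TPM; when all 15678 genes above 0 were tested, PBX3 and HOXA5 were higher on the deposited scale (0.73 and 0.42, limma adjusted p = 0.018 and 0.0169), as were 49.1% of genes, with 0.223% lower. Neither passed relative to the typical gene (0.26 and 0.18, limma adjusted p = 0.19 and 0.113), where 8.86% of genes were called higher and 5.45% lower. In GENCODE 29 HOXA5 lies within the span of HOXA3 on the same strand, and under HOXA-AS3 on the other; the strand setting of the counting is not given in the sources used here, so reads of these genes may not be told apart. HOXA7 (chr7:27153716-27157936, minus strand) was at 0.02 and 0 TPM in Flag-IP and at 0.03 and 0.15 TPM in input. As deposited, it was the 1 member with both Flag-IP values below both inputs, at levels that rest on little signal (limma adjusted p = 0.186 on the deposited scale without a filter).

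The signalling and fusion-partner members were near the bottom of the scale. FLT3 (chr13:28003274-28100592, minus strand) was at 0.01 and 0 TPM in Flag-IP and at 0 and 0.02 TPM in input, so its mRNA was listed at or near 0 in all 4 libraries. MEF2C (chr5:88717117-88904257, minus strand) was at 0.15 and 0.13 TPM in Flag-IP and at 0.05 and 0.12 TPM in input. Flag-IP 3 and input 3 differed by 0.01 TPM in MEF2C, the rounding step of the table. MLLT3 (chr9:20341665-20622543, minus strand) was at 0.46 and 0.28 TPM in Flag-IP and at 0.27 and 0.16 TPM in input, so Flag-IP 3 and input 1 were nearly equal. Reads from the MLLT3 part of a KMT2A::MLLT3 transcript cannot be told apart from those of intact MLLT3 in this table. None of the 3 passed on either scale when all genes above 0 were tested (limma adjusted p between 0.206 and 0.753 on the deposited scale).

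Along the HOXA cluster the members stood beside neighbours that the programme does not include. In input HOXA13 and HOXA11, the genes at the 5′ end of the cluster, were at 1.86 ± 0.375 and 1.37 ± 0.346 TPM, next to HOXA10 at 1.72 ± 0.191 TPM (SD, n = 2 each). HOXA13 reached 3.86 and 2.83 TPM in Flag-IP libraries, with 1.59 and 2.12 TPM in input. HOXA11 reached 1.98 and 2.27 TPM in Flag-IP libraries, with 1.12 and 1.61 TPM in input. Both were higher on the deposited scale (0.60 and 0.41, limma adjusted p = 0.00561 and 0.0498) and on the lower side relative to the typical gene, where they did not pass (-0.30 and -0.38, limma adjusted p = 0.0754 and 0.0774). HOXA11-AS, an antisense RNA overlapping HOXA11, had 2.91 and 2.76 TPM in Flag-IP and 1.05 and 1.39 TPM in input (-0.02 relative to the typical gene, limma adjusted p = 0.89).

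HOXA6, which lies between HOXA5 and HOXA7, and the genes from HOXA4 to HOXA2 were scarce in input. HOXA6 had 1.34 and 0.54 TPM in Flag-IP and 0.05 and 0.06 TPM in input. HOXA3 had 0.45 and 0.52 TPM in Flag-IP and 0.04 TPM in both inputs. The ratios of means, 17.1 and 12.1, were above those of the members, at input levels where few reads decide a value. With all 15678 genes above 0 tested, HOXA3 was higher as deposited and relative to the typical gene (limma adjusted p = 0.00863 and 0.0378). HOXA6 was higher as deposited but did not pass relative to the typical gene (limma adjusted p = 0.0347 and 0.0676). The shares called higher were 49.1% and 8.86% of genes. HOXA6 lies within the HOXA3 span on the same strand, so their reads may not be told apart. HOXA4 was at 0.04 TPM in both Flag-IP libraries and at 0.04 and 0.02 TPM in input, and HOXA2 was above 0 in Flag-IP 1 alone, at 0.04 TPM. Of the other transcripts at the members' loci HOTTIP, HOTAIRM1, HOXA-AS2, HOXA-AS3, HOXA10-AS, MEIS1-AS2 and MEIS1-AS3 stayed at 0.15 TPM or less in every library, and MIR196B and MEF2C-AS1 were listed at 0.

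**Figure D3:**
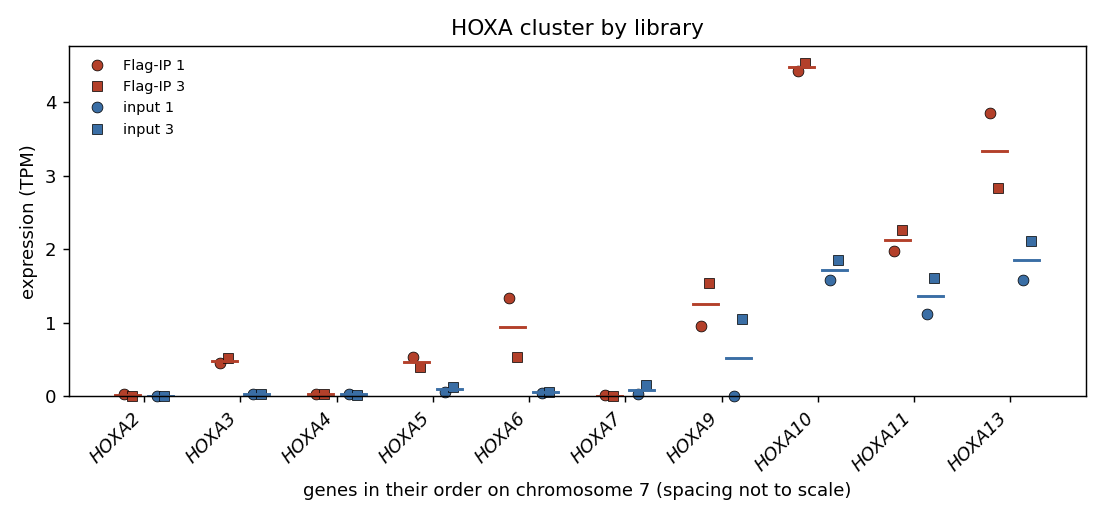
Expression (TPM) of 10 HOXA genes in their order on chromosome 7; points are libraries, circles number 1 and squares number 3, and bars are means of 2. HOXA10, HOXA11 and HOXA13 stand above 1 TPM in all libraries, HOXA9 varies between 0 and 1.55 TPM, and the others stay at or below 1.34 TPM.

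The remaining HOX clusters gave little or no signal. Of 10 HOXB genes 9 were listed at 0 in all libraries, as were 8 of 9 HOXD genes, and HOXB3 and HOXD12 did not exceed 0.09 TPM. In the HOXC cluster 7 of 9 genes were above 0 in some library; HOXC10 was the highest, at 1.09 and 0.73 TPM in Flag-IP and 0.40 and 0.92 TPM in input. The HOXC sum was 1.68 and 1.01 TPM in Flag-IP and 0.52 and 1.15 TPM in input. Low HOXC values not yet given (HOXC4, HOXC5, HOXC6, HOXC8, HOXC9 and HOXC13) were at or below 0.41 TPM. The tested TALE cofactors outside the programme were PBX2, TGIF1 and TGIF2. PBX2, a close relative of PBX3, was at 4.55 and 4.60 TPM in Flag-IP and at 1.51 and 2.26 TPM in input, well above PBX3. All 3 were higher on the deposited scale, where 86.6% of all tested genes were. None passed relative to the typical gene (0.03 for PBX2, 0.05 for TGIF1 and -0.11 for TGIF2). TGIF1 and TGIF2 passed the filter through Flag-IP, with input means of 0.62 and 0.68 TPM.

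The machinery that fusions of KMT2A use to keep the programme active was measured beside the members. Of 29 listed genes 24 were tested; relative to the typical gene 6 were higher (25%) and 2 lower (8.33%), against 22.3% and 18.6% of all tested genes, with a median of 0.06. On the deposited scale 23 were higher and 1 did not pass, where 86.6% of all tested genes were called higher. KMT2A reached 7.03 and 5.07 TPM in Flag-IP and 0.91 and 1.08 TPM in input (0.94 ± 0.10 relative to the typical gene, limma adjusted p = 0.00191). Its 5′ part is also carried by the fusion, whose reads cannot be told apart from those of the intact gene. MLLT6, a partner of KMT2A in other fusions, was higher by 1.07 ± 0.11 on that scale (limma adjusted p = 0.00158). The input means of KMT2A and MLLT6, 0.995 and 0.92 TPM, were under the filter, which both passed through their Flag-IP values; with all 15678 genes above 0 tested, the limma adjusted p was 0.0144 and 0.0143. PSIP1, the chromatin tether of KMT2A, was at 4.58 and 3.18 TPM in Flag-IP and 2.59 and 3.89 TPM in input, overlapping groups, and was lower relative to the typical gene (-0.77 ± 0.14, limma adjusted p = 0.008). HCFC1 and SUPT16H, among the genes of highest level in this list, were at 0.37 (limma adjusted p = 0.0436) and -0.10 (limma adjusted p = 0.502) on that scale. With no filter the HCFC1 call was lost (limma adjusted p = 0.113), while that of PSIP1 held (limma adjusted p = 0.0332).

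**Figure D4:**
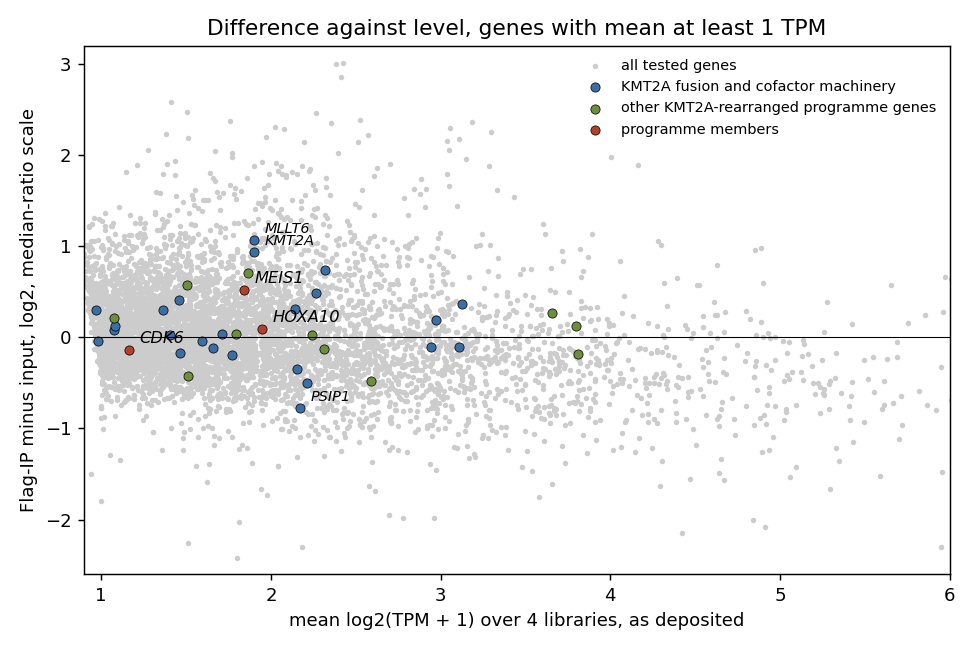
Difference of Flag-IP minus input (log2, median-ratio scale) against mean log2(TPM + 1) over the 4 libraries for the genes tested; grey points are all tested genes, of which 187 lie outside the axes, and coloured points are genes of the lists named in the legend. MEIS1 lies at 0.52, HOXA10 at 0.10 and CDK6 at -0.14, inside the spread of all genes.

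Other genes of the KMT2A-rearranged programme, not among the 10 members, were listed as well. Of 30 listed genes 11 were tested, and relative to the typical gene 2 were higher (IGF1R and JMJD1C) and 2 lower (ZFP36L2 and CD44, the second named after its value was seen), 18.2% each way against 22.3% and 18.6% of all tested genes, with a median of 0.04. IGF1R, a growth factor receptor, had 6.16 and 4.59 TPM in Flag-IP and 0.95 and 1.27 TPM in input (0.71 ± 0.11, limma adjusted p = 0.00464). JMJD1C, a jumonji-domain protein, was higher by 0.58 ± 0.12 (limma adjusted p = 0.0121). It passed the filter through Flag-IP, with an input mean of 0.775 TPM, and had a limma adjusted p of 0.0475 with no filter. ZFP36L2, an mRNA decay factor, was lower at -0.47 ± 0.10 (limma adjusted p = 0.0131). With no filter ZFP36L2 kept its call and CD44 lost its own (limma adjusted p = 0.029 and 0.056). The members of highest level were GFI1, MYC and MYB, transcription factors with Flag-IP means of 20.8, 18.8 and 19.9 TPM, against 7.93, 8.97 and 6.70 TPM in input. They did not pass on the median-ratio scale (0.12, -0.18 and 0.27). EYA1, SIX4, IKZF2 and ERG were listed at 0 in all libraries.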

How the data were processed

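Per the series' design text, RNA was fragmented and libraries were prepared with a stranded TruSeq mRNA kit. STAR, RSEM and GRCh38 are named, per the submitters' processing notes; their versions, the annotation and the strand setting were not given in the sources used here. Values are TPM per symbol, as the authors deposited them, rounded to 2 decimals, each library summing to 1000000, so depth is unknown, a value of 0 may be a failed estimate, and no counting error is given.

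The filter was a mean over 4 libraries of 1 TPM or more, and the values log2(TPM + 1) were compared with limma 3.58.1 in R 4.3.3 (lmFit, eBayes with trend; 2 residual degrees of freedom), two-sided, with Benjamini-Hochberg adjustment over all tested genes at 0.05, on either scale. For the values as deposited, limma's prior degrees of freedom were infinite (gene variances all set to the trend), so p-values there may be too small. The method was checked on simulated data, but no outcome is reported here, so that check lends the p-values no weight. Positions, lengths and sequences are from GENCODE 29 (GRCh38); 23819 symbols matched by name, 24 by gene ID, and 96.5% of tested genes had a length. The members and gene lists were chosen with earlier results of these data known. Named were all members and, per list, the 3 tested genes of greatest mean level and 3 of greatest median-ratio difference in either direction, and HOX genes and transcripts at the members' loci above 0; a few genes this rule names are not reported here. Alternatives were other scalings, filters, a pseudocount of 0.1, no trend, the replicate number as a block, a loess fit on transcript length (span 0.5) subtracted and each library left out; a crossed block and the HOXA9 sum were added after seeing the data.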

Additional observations from a re-analysis of the deposited data

How the results depend on the processing

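With 2 libraries a group and no depth, members under 1 TPM could hardly be tested, and values near 0 carry an unknown counting error. MEIS1 stayed higher on the deposited scale in every alternative run, and lost its median-ratio call without Flag-IP 1 and with the length trend removed, as given above. CDK6, as deposited, turned to -0.26 with quantile scaling and -0.013 when scaled without structural RNAs, lost its call there without a filter, without either input and with the length trend removed (0.13), and gained one on the median-ratio scale (-0.59). HOXA10 lost its deposited call with quantile scaling (0.04) and without structural RNAs (0.36); relative to the typical gene, leaving out 1 library gave -0.025 (without Flag-IP 3) to 0.215. Over all genes, against 5616 higher and 48 lower as deposited, quantile scaling gave 1243 and 1219, structural RNAs left out 2206 and 711, and the 5 TPM filter, which tests fewer genes and no member, 1272 and 25; with the length trend removed 26 were lower. Against 1444 higher and 1207 lower on the median-ratio scale, the 5 TPM filter gave 392 and 355. Quantile scaling and the scaling without structural RNAs take the place of either scale, so they are no variants of the median-ratio result. Leaving out 1 library gave 3939 to 5628 higher and 28 to 57 lower as deposited, and 961 to 1135 higher and 587 to 837 lower on the median-ratio scale, the last 3 lowest without Flag-IP 1. Deviations of same-numbered libraries ran opposite (r = -0.187 over 6487 genes), so the numbers are not shown to pair the libraries; with the replicate block 4789 genes were higher and 35 lower as deposited and 1286 and 1055 on the median-ratio scale, with a crossed block 5908 and 58, and 1409 and 1275. The block changed no member's call. The cause of these shifts was not tested.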

Other observations

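Genes that act beside FLT3, CDK6 and MEF2C were measured too. Of 21 partners of FLT3 and CDK6, 16 were tested; 14 were higher as deposited, where 86.6% of all tested genes were. Relative to the typical gene 1 was higher (6.25%) and 4 lower (25%), against 22.3% and 18.6% of all tested genes, with a median of -0.13. CCND3, the D-type cyclin that binds CDK6, had 30.83 and 29.04 TPM in Flag-IP and 16.77 and 18.40 TPM in input. Its difference on the median-ratio scale was -0.47 ± 0.12 (limma adjusted p = 0.0219). CDK4, which shares its cyclins with CDK6, had 12.79 and 12.53 TPM in Flag-IP and 7.64 and 7.20 TPM in input, and did not pass relative to the typical gene (-0.45, limma adjusted p = 0.0511). SOS1, an exchange factor of RAS downstream of receptor kinases, was the 1 gene higher on that scale (0.54 ± 0.17, limma adjusted p = 0.0476). It passed the filter through Flag-IP, with an input mean of 0.495 TPM, and the call was lost with no filter (limma adjusted p = 0.145). CDKN2C, an inhibitor of CDK4 and CDK6, was lower (-0.54 ± 0.17, limma adjusted p = 0.0487). So were GRB2 and PTPN11, adaptor and phosphatase of receptor signalling, both named after their values were seen (-0.43 and -0.42). With no filter the calls of CDKN2C and PTPN11 were lost (limma adjusted p = 0.123 and 0.0613). Those of CCND3 and GRB2 held (limma adjusted p = 0.0483 and 0.0428). CDKN1B and CDKN2A did not pass (0.09 and -0.52).

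In the MEF2 family, where MEF2C was at 0.15 TPM or less in every library, MEF2A had 2.20 and 1.53 TPM in Flag-IP and 0.51 and 0.69 TPM in input. Of the 5 tested genes of this family, the class IIa deacetylases that bind MEF2 proteins and the SIK kinases that regulate those deacetylases, all 5 were higher as deposited, where 86.6% of all tested genes were, and 2 relative to the typical gene, where 22.3% were, with a median of 0.19. HDAC7 had 3.60 and 3.30 TPM in Flag-IP and 0.54 and 0.66 TPM in input (0.74 ± 0.10, limma adjusted p = 0.00357), and SIK3 had 2.26 and 1.97 TPM in Flag-IP and 0.38 and 0.49 TPM in input (0.50 ± 0.10, limma adjusted p = 0.00995). Both passed the filter through Flag-IP, with input means of 0.60 TPM for HDAC7 and 0.435 TPM for SIK3; with no filter the limma adjusted p was 0.0228 and 0.0436. HDAC5 did not pass on that scale (0.12), and HDAC9 was listed at 0.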
